A study of Mus musculus with 2 samples.

Results

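The transcription factor AP-1 and the immediate-early genes that are induced with it were examined in GR-1+ cells of mouse breast tumors. Of the 28692 genes listed in both count matrices, 10 were taken by symbol: the AP-1 subunits Fos, Fosb, Jun, Junb and Jund, the zinc finger factor Egr1, the stress-responsive factor Atf3, and the early genes Ier2, Ier3 and Btg2. The cells came from 4T1 tumors grown in the mammary fat pad of young adult female BALB/c mice that had received anti-PD1 for 2 weeks. 4T1p is the parental line, a triple-negative mammary carcinoma that resists the therapy, and 4T1m is a polyclonal line made from it by chemical mutagenesis that responds. Both groups received the antibody, so no untreated tumor enters any comparison. Tumors were dissociated by warm enzymatic digestion, GR-1+ cells were selected with magnetic beads, and 1 library of 3′ single-cell RNA was made per tumor type. With 1 library per tumor type no difference was tested, and every 95% interval below covers counting error only.

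AP-1 is a dimer of Fos and Jun proteins, or of Jun proteins alone, that binds DNA through a leucine zipper. Fos, Fosb, Jun, Junb, Egr1 and Ier2 are transcribed within minutes of a growth factor, cytokine or stress signal through MAP kinases and factors already present in the cell, and their mRNAs decay fast. Jund is the subunit that resting cells hold at a steady level. In monocytes, macrophages and neutrophils these factors take part in activation, in differentiation and in the response to adhesion and to microbial products. The same genes are also known to respond to warm enzymatic dissociation of tissue, together with heat shock genes.

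Of 8 genes with a promoter in the RefSeq table of GRCm38.p6 (none was listed for Ier2 and Egr1), those of Fos, Jun and Junb are shown as examples. Each runs from 250 bases before the RefSeq start to the base before it. In Fos (chr12:85473640-85473889, plus strand) capitals mark the core of the cAMP response element, TGACG, and the TATA box, TATAAA. In Jun (chr4:95052223-95052472, minus strand) they mark the AP-1-like element TGACATCA, a letter string added after the sequence was read. In Junb (chr8:84978749-84978998, minus strand) they mark TGACG.
Fos: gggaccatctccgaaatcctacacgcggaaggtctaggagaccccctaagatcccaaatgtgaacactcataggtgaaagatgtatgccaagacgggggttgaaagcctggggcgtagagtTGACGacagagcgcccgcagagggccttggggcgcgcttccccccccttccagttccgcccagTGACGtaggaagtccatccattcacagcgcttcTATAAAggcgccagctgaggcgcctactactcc
Jun: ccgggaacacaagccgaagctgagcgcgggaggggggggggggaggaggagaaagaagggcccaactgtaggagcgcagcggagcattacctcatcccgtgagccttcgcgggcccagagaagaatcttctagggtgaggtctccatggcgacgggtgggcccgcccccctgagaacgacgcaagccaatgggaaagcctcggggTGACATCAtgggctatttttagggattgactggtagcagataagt
Junb: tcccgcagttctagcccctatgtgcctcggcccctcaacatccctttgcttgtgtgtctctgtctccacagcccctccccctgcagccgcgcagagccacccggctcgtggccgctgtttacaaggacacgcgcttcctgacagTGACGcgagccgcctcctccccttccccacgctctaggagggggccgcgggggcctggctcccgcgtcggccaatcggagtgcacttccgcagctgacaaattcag
Searched on both strands, TGACG lay in 5 of the 8 promoters (Atf3, Btg2, Fos, Fosb and Junb) and in 17.8% of 32851 promoters of the same length. The full element TGACGTCA, which contains that core, lay in the promoter of Btg2 alone of the 8 and in 1.55% of all. TGACATCA lay in that of Jun and in 2.93% of all. The AP-1 element TGANTCA was in 0 of the 8 and in 6.75% of all, and the CArG box of serum response factor was in 0 and in 1.47%. TATAAA was in 1 (Fos) and in 12.4%, and the GC box GGGCGG was in 6 and in 32.7%. These are letter matches in a short window and say nothing of binding.

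There were 9021132 UMIs over 1641 barcodes in the library labelled 4T1p and 14840190 UMIs over 2749 barcodes in that labelled 4T1m. Cells kept had 250 to 5000 genes, no more than 27000 UMIs and a mitochondrial share within the limit of the study. They numbered 1128 and 2092, and the libraries shared 0 barcodes. The study also required a UMI of Ptprc, which was not required here and was present in 518 and 1575 of the cells kept. Over all barcodes the median was 2066 UMIs for the label 4T1p and 2763 for the label 4T1m. The methods of the study give these medians the other way round, so every direction between the libraries rests on the labels of the files. If the labels were exchanged, each of these directions would turn round, the one of Jun, that of Klf2 and the cell numbers of the clusters included. Clusters were built without the 10 genes, their listed relatives and the heat shock genes, and took their names from marker genes. Monocytic-like cells numbered 633 in the library labelled 4T1p (median 2469 UMIs) and 763 in that labelled 4T1m (median 8195), and granulocytic-like cells numbered 251 (median 2717) and 1024 (median 2482). The summed level of 10 monocytic markers such as Csf1r and Apoe was 32233 and 17851 counts per 1000000 UMIs (CPM) in monocytic-like cells and 884 and 841 in granulocytic-like cells of the libraries labelled 4T1p and 4T1m. That of 10 granulocytic markers such as S100a8 and Cxcr2 was 1032 and 1395 CPM against 160466 and 161524 CPM. A cluster of 483 shallow cells (median 858 UMIs), in which monocytic markers were the higher, was left unnamed, and 34 B cell-like and 32 T cell-like cells were set aside.

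Within each library the 10 genes fell into groups by lineage. Fosb was the gene with the widest gap, several-fold higher in monocytic-like cells, Fos was also higher there, and Ier3, Btg2, Jun and Junb were higher in granulocytic-like cells. Fosb stood at 797 CPM in monocytic-like against 70.1 CPM in granulocytic-like cells of the library labelled 4T1p, a log2 ratio of 3.51 (3.13 to 3.91). In the library labelled 4T1m it stood at 681 against 111 CPM (log2 ratio 2.61, 2.46 to 2.77). Fos, the partner that Jun proteins need for their most stable dimers, stood at 1745 against 589 CPM in the library labelled 4T1p (log2 ratio 1.57, 1.43 to 1.70) and at 774 against 488 CPM in that labelled 4T1m (0.67, 0.58 to 0.75). Both Fos genes were thus higher on the CPM scale in the monocytic-like cells of both libraries. In that labelled 4T1m the ratio of Fos lay below the median of all genes (1.16).

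Ier3, an early gene known for its part in cell survival, stood at 1184 against 3441 CPM in the library labelled 4T1p and at 664 against 1926 CPM in that labelled 4T1m, with a log2 ratio of -1.54 in both. Btg2, an antiproliferative early gene, stood at 588 against 1166 CPM (-0.99, -1.09 to -0.88) and at 205 against 789 CPM (-1.95, -2.04 to -1.85). Jun stood at 957 against 1221 CPM (-0.35, -0.45 to -0.25) and at 449 against 983 CPM (-1.13, -1.20 to -1.06), and Junb at 2671 against 3740 CPM (-0.49) and at 1532 against 2135 CPM (-0.48). Jun and Junb were thus higher in granulocytic-like cells, where both Fos genes were lower on the same scale. With a Ptprc UMI required and without doublets, however, the ratio of Jun in the library labelled 4T1p was 0.03. Jund, the steady subunit, lay slightly on the monocytic-like side, at 1189 against 999 CPM (0.25, 0.15 to 0.36) and at 1014 against 957 CPM (0.08, 0.021 to 0.14). Atf3 had log2 ratios of 0.85 and 0.34, Ier2 of 0.66 and 0.03 (the latter with an interval of -0.07 to 0.14), and Egr1 of 0.66 and -0.14.

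These ratios stand beside a shift of all genes, most of which were higher on the CPM scale in monocytic-like cells. All genes had a median log2 ratio of 0.98 for the library labelled 4T1p and 1.16 for that labelled 4T1m. Over 2-fold higher in monocytic-like cells of the library labelled 4T1p were 2 of the 10 genes (Fos and Fosb), as were 49.5% of 6925 genes, and 1 (Ier3) was over 2-fold higher in granulocytic-like cells, as were 11%. For the library labelled 4T1m, 1 (Fosb) was over 2-fold higher in monocytic-like cells, as were 53.6% of 8401 genes, and 3 (Jun, Ier3 and Btg2) were higher in granulocytic-like cells, as were 10.5%. Relative to the median gene, Fosb lay above it in both libraries and Fos in the library labelled 4T1p alone, and Atf3, Ier2 and Jund turned to the granulocytic-like side in both. Egr1 turned to that side in the library labelled 4T1p and was there before centring in that labelled 4T1m. The share of genes with a higher ratio was 8.09% and 22.0% for Fosb, and 93.7% and 93.8% for Ier3. Without doublets Btg2 also passed 2-fold in the library labelled 4T1p, where the count was then 2. The shares of all genes above are those with doublets kept.

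**Figure D1:**
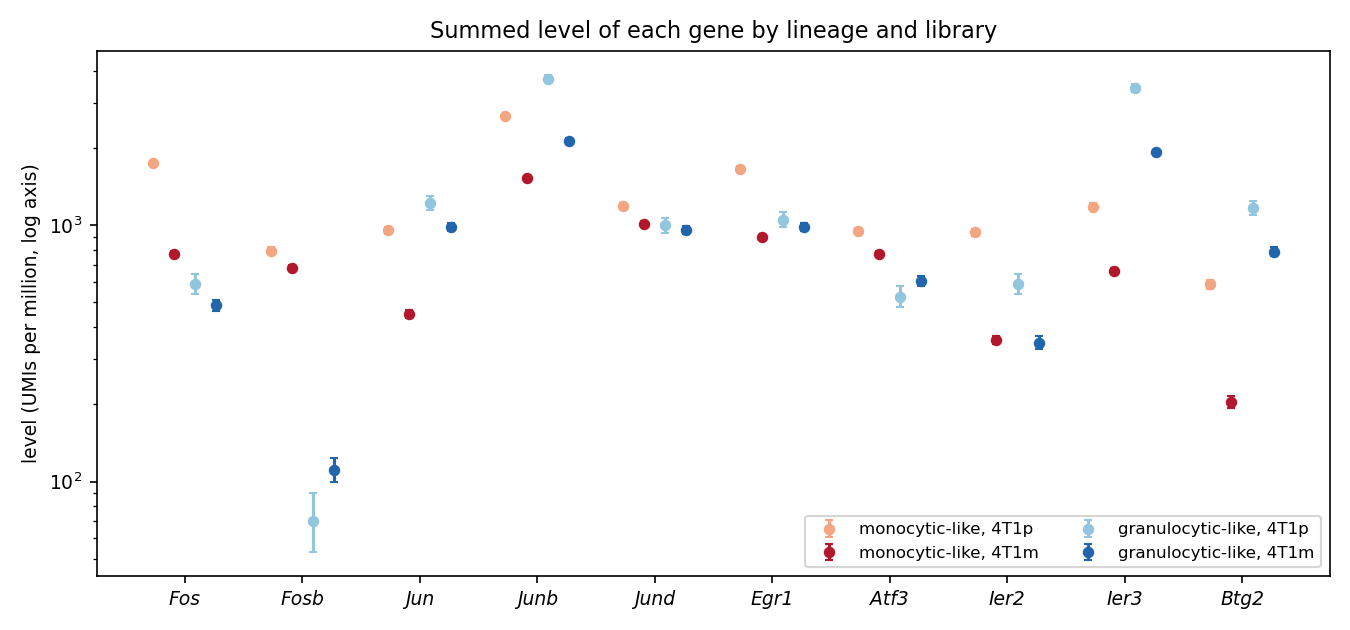
Level of each of the 10 genes (summed UMIs per 1000000, log axis) in monocytic-like (red) and granulocytic-like (blue) cells of the libraries labelled 4T1p (light) and 4T1m (dark), with exact Poisson 95% intervals as bars. Fosb has its lowest points in granulocytic-like cells (70.1 and 111), Ier3 its highest there (3441 and 1926), and in monocytic-like cells each dark point lies below the light one.

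The lymphoid cells of the same libraries give the level of each gene in cells of another kind. In the 33 B cell-like cells of the library labelled 4T1m, Ier3 had 0 UMIs, which allows up to 18.6 CPM (3 counts), Atf3 stood at 30.9 CPM, Fosb at 99.0, Fos at 161, Jun at 179, Ier2 at 241, Btg2 at 396, Egr1 at 452, Junb at 1244 and Jund at 1609. Free RNA in droplets could add no more than these levels to cells in which it made up the same share of UMIs. Under that condition they are upper limits, since B cells transcribe some of these genes themselves. The same number of free UMIs is a larger share of a shallower cell. The median depth was 3772 UMIs in these B cell-like cells and 2482 in granulocytic-like cells of that library. A level little above the B cell-like one, as that of Ier2 in granulocytic-like cells (349 CPM), may thus not exceed free RNA. Fos, Jun, Junb, Egr1, Atf3, Ier2 and Ier3 stood higher in both myeloid lineages of that library. Jund was lower in both, at 1014 and 957 CPM, and Btg2 was lower in monocytic-like cells, at 205 CPM. Granulocytic-like Fosb, at 111 CPM in that library, had an interval that overlaps the B cell-like one, so it could not be told apart from free RNA over the lineage as a whole. Among granulocytic-like clusters of that library Fosb ran from 65.2 CPM (50.7 to 82.5) in cluster 8 to 196 CPM (157 to 241) in cluster 5, at median depths of 4721 and 1585.5 UMIs.

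Between the libraries, all 10 genes were lower in the monocytic-like cells of the library labelled 4T1m than in those of the library labelled 4T1p, with each interval below 0. No share of all genes with an interval below 0 is given beside this or any later count of intervals. The largest differences were in Btg2, at 588 CPM in the library labelled 4T1p and 205 in that labelled 4T1m (log2 ratio -1.52, -1.62 to -1.43), and in Ier2, a nuclear early protein, at 938 and 357 CPM (-1.39, -1.47 to -1.32). Fos stood at 1745 and 774 CPM (-1.17, -1.22 to -1.12), and Jun at 957 and 449 CPM (-1.09, -1.16 to -1.02). These 4 genes were over 2-fold higher in the library labelled 4T1p, as were 1.89% of 8845 genes, and 0 were over 2-fold higher in that labelled 4T1m, as were 7.04%. The median of the 10 was -0.86, where that of all genes was 0.11.

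Egr1 stood at 1664 and 897 CPM (-0.89), Ier3 at 1184 and 664 CPM (-0.84) and Junb at 2671 and 1532 CPM (-0.80). Atf3, at 951 and 770 CPM, had a log2 ratio of -0.30, and Jund and Fosb of -0.23 each. The size of these differences depended on how cells were weighted. With each cell thinned to 1000 UMIs the values of Fosb and Jund turned to 0.27 and 0.14, and the count over 2-fold was 2. With at most 5% mitochondrial UMIs Fos was at -0.70 and the count was again 2. For these settings no share of all genes is given beside the count.

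The monocytic-like cells of the libraries did not have the same makeup. Cluster 2 (led by Ccl8, Tmem176b and C1qb) held 254 cells of the library labelled 4T1p and 87 of that labelled 4T1m, whereas cluster 3 (led by Thbs1 and Vcan) held 63 and 269. Within the clusters the direction was kept for most genes: Fos, Jun, Junb, Egr1, Ier2, Ier3 and Btg2 had an interval below 0 in 5 of 5 monocytic-like clusters. Fosb did in 4, Atf3 in 4 with 1 cluster above 0, and Jund in 3. How many of all genes had such intervals is not given. In cluster 4 (led by Ccl5, Ifnb1 and Ifit2), for example, Fos had 4121 and 1990 UMIs in the libraries labelled 4T1p and 4T1m (log2 ratio -1.51, -1.59 to -1.43) and Egr1 4066 and 1926 UMIs (-1.54). With the clusters weighted equally, 6 genes were over 2-fold lower in the library labelled 4T1m, and no share of all genes is given for that setting.

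In granulocytic-like cells the differences between the libraries were smaller for Fos, Jun, Egr1, Ier2, Btg2 and Jund, with intervals apart from those in monocytic-like cells, and nearly the same for Junb and Ier3. Ier3 stood at 3441 CPM in the library labelled 4T1p and 1926 in that labelled 4T1m (-0.84, -0.90 to -0.77), Junb at 3740 and 2135 CPM (-0.81, -0.87 to -0.75), Ier2 at 592 and 349 CPM (-0.76) and Btg2 at 1166 and 789 CPM (-0.56). Jun and Fos had log2 ratios of -0.31 and -0.27, and the intervals of Egr1 and Jund held 0. Fosb (0.67, 0.26 to 1.09) and Atf3 (0.21, 0.06 to 0.36) were higher in the library labelled 4T1m. None of the 10 passed 2-fold, where 7.24% of 4517 genes were higher in the library labelled 4T1m and 3.17% in that labelled 4T1p. Junb, Ier3 and Btg2 had an interval below 0 in 4 of 4 granulocytic-like clusters that could be compared, again without a share of all genes.

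**Figure D2:**
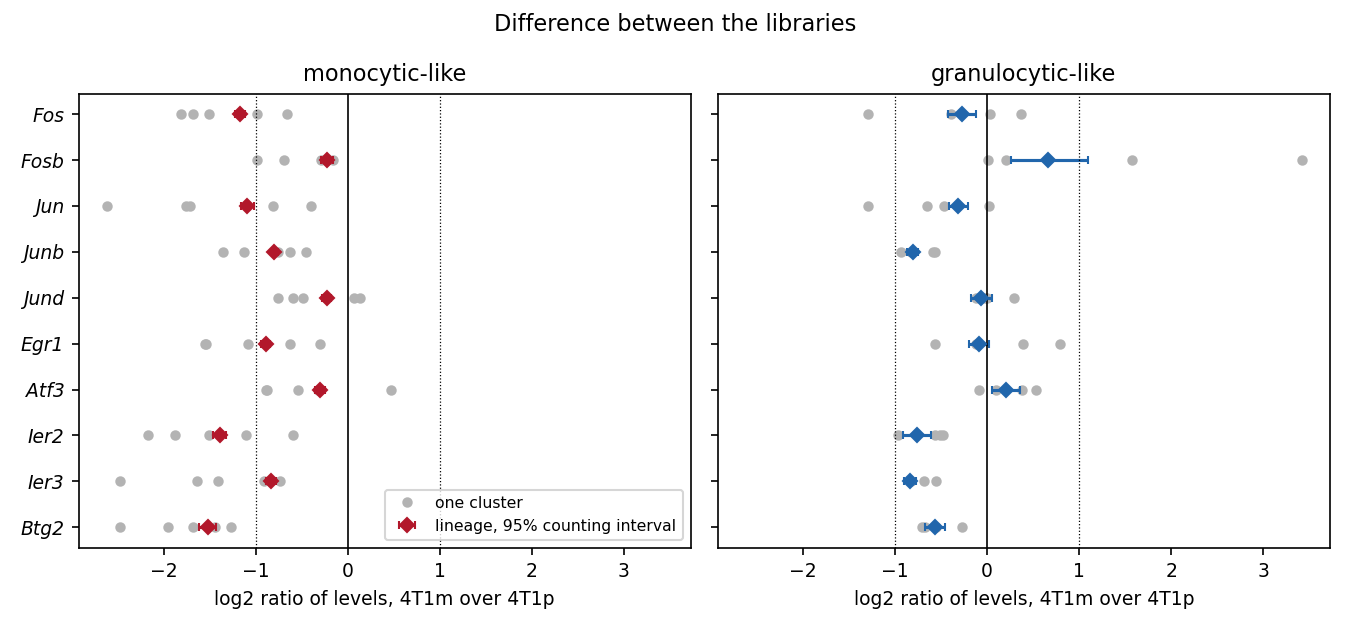
Log2 ratio of the level in the library labelled 4T1m over that labelled 4T1p for each of the 10 genes, in all monocytic-like (left) and all granulocytic-like cells (right; diamonds with 95% counting intervals) and in single clusters with at least 30 cells in each library (grey). On the left all diamonds lie below 0, from -1.52 for Btg2 to -0.23, and on the right they run from -0.84 for Ier3 to 0.67 for Fosb; dotted lines mark 2-fold.

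Measures of depth and handling also differed between these cells. The heat shock genes known to respond to dissociation, 14 in number, summed to 8246 and 8627 CPM in monocytic-like cells and to 3340 and 4442 CPM in granulocytic-like cells of the libraries labelled 4T1p and 4T1m. This gap between the lineages was uneven over the list. In the library labelled 4T1p, Hspa8 stood at 2828 against 498 CPM and Hsp90ab1 at 1549 against 162 CPM. Hspa1a (log2 ratios of 0.09 and -0.32), Dnajb1 (0.20 and -0.40) and Hsp90aa1 (0.07 and -0.15) had small ratios of both signs in the 2 libraries. Over 2-fold higher in monocytic-like cells were 9 and 7 of the 14, as were 49.5% and 53.6% of all genes. The median library ratio of the 14 was -0.02 in monocytic-like cells, with 0 of 14 beyond 2-fold in either direction, and 0.39 in granulocytic-like cells. The list was divided in monocytic-like cells, with an interval below 0 for 6 genes, above 0 for 6 and holding 0 for 2. Lower in the library labelled 4T1m were Hspb1 (-0.73), Dnajb1 (-0.67), Hspa1a (-0.58, -0.67 to -0.50), Hspa1b (-0.41), Hspe1 (-0.28) and Hspa8 (-0.13). Higher there were Hspa5 (0.62), a chaperone of the endoplasmic reticulum, Hsp90aa1 (0.41), Hspd1 (0.40), Hsph1 (0.28), Dnaja1 (0.14) and Hsp90ab1 (0.09). The median mitochondrial share was 3.59% and 4.74% in monocytic-like cells. In monocytic-like cells 4 erythroid markers summed to 10.1 CPM in the library labelled 4T1p and 1735 CPM in that labelled 4T1m. Within the library labelled 4T1p, monocytic-like cells above the median mitochondrial share had more Fosb (log2 ratio 1.07 over the cells below), Egr1 (0.91) and Fos (0.34), at a median of 8040 against 1753 UMIs. Within that labelled 4T1m they had more Fosb (0.54) but less Fos (-0.32), Jun (-0.40) and Ier3 (-0.57). Granulocytic-like cells above the median share were the shallower in both libraries, at 2666 against 2902 UMIs in that labelled 4T1p. They had more Fos (0.63 and 0.52 in the libraries labelled 4T1p and 4T1m), Egr1 (0.93 and 0.64), Atf3 (0.79 and 0.49) and Jun (0.97 and 0.24). Of the 10 genes only Ier2 (-0.07 and 0.02) had intervals there that held 0, and the others were higher. The part of any of these in the difference between the libraries was not tested.

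Over the clusters of a lineage with at least 30 cells in a library, Fos, Jun, Egr1 and Atf3 had a wider range in granulocytic-like than in monocytic-like cells of both libraries. The log2 range of Fos was 2.38 against 0.55 in the library labelled 4T1p and 2.72 against 1.08 in that labelled 4T1m, and that of Jun was 1.86 against 0.66 and 2.71 against 1.80. For Ier3 it was 2.09 against 1.21 in the library labelled 4T1p and 1.93 against 2.60 in that labelled 4T1m. Cluster 8 (led by Ngp, Ly6g and Cd177, genes of the granules and surface of maturing neutrophils) had the lowest granulocytic-like level of 8 of the 10 genes in the library labelled 4T1p and of 7 in that labelled 4T1m.

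Cluster 10 (led by Steap4, Igfbp6 and Ddit3) held 136 cells of the library labelled 4T1m and 14 of that labelled 4T1p. In the library labelled 4T1m it had the highest granulocytic-like levels of Fos (1621 CPM), Jun (2803), Junb (3138), Atf3 (1478) and Btg2 (1493). Its log2 ratio over cluster 8 there was 2.72 (2.48 to 2.96) for Fos, 2.62 (2.44 to 2.79) for Jun and 2.34 (2.11 to 2.57) for Atf3. In the 14 cells of the library labelled 4T1p these ratios were 2.02, 0.69 and 2.28, and cluster 5 was above cluster 10 for Jun, at 2300.0 against 1018 CPM, and for Fos, at 1260 against 982 CPM. Ier3 was highest in cluster 7 (led by Ccdc126, Mreg and Ciart) in both libraries, at 5262 and 2945 CPM, and Egr1 in that labelled 4T1m alone, at 1516 CPM.

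In cluster 1 (led by Mirt1, Hdc and Il1f9) Junb stood at 3508 CPM over both libraries, where Fos was at 363 and Jun at 592 CPM. Cluster 5 (led by Ccdc126, Ppp1r3b and Tnfrsf23) had more Jun (2330.4 CPM) and Fos (1019 CPM) than cluster 1 and less Junb (1681 CPM). This pair of clusters was set side by side after their values were seen. Jun was higher in cluster 5 by a log2 ratio of 1.13 (0.89 to 1.37) in the library labelled 4T1p and 2.45 (2.28 to 2.62) in that labelled 4T1m, and Fos by 0.97 and 1.87. Junb was lower in cluster 5 by log2 ratios of -0.93 and -1.03, and Ier2 by -1.06 and -0.97. Jun and Junb, alternative partners of Fos, thus differed in opposite directions between these granulocytic-like states in both libraries. The heat shock genes summed to 7382 CPM in cluster 5, 3377 in cluster 1, 10116 in cluster 10 and 1759 in cluster 8, and the median depth was 1616, 2904, 1362 and 4781 UMIs. Single heat shock genes differed unevenly between clusters 5 and 1. Hspa1a was higher in cluster 5 by log2 ratios of 3.26 and 3.102 in the libraries labelled 4T1p and 4T1m, and Hspa1b by 4.92 and 2.98. These ratios were larger than those of Jun. Hspa5 had ratios of -0.195 and -0.101, with intervals that held 0. The part of heat shock genes and of depth in these differences was not tested.

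Among monocytic-like clusters the order depended on the library. In that labelled 4T1p, cluster 4 had the highest level of 7 genes, Junb (3535 CPM), Egr1 (2032) and Ier2 (1190.1) among them, and cluster 9, led by the cell division genes Birc5, Ube2c and Top2a, had the lowest of 5, with Junb at 1244.5 CPM. For that labelled 4T1m, cluster 3 had the highest level of 6 genes, with Fos at 892, Jun at 615 and Junb at 1690.1 CPM, and cluster 2 had the lowest of 7, with Fos at 423 and Junb at 785 CPM. Cluster 4 had the highest Fosb (1068 and 874 CPM) and Atf3 (1186 and 950 CPM) in both libraries, and cluster 3 the highest Ier3 (1744 and 927 CPM) and Jund (1742 and 1156 CPM). Cluster 9 had the lowest Btg2 in both, at 309.5 and 80.0 CPM. These clusters also differed in depth. Over both libraries the median was 1581 UMIs in cluster 9, 1506 in cluster 2 and 1824.5 in cluster 6. It was 15117 in cluster 4 and 9928.5 in cluster 3. A Ptprc UMI was present in 27.5%, 34.6% and 41.7% of the cells of clusters 9, 2 and 6. In clusters 4 and 3 it was present in 95.05% and 90.7%. The part of depth or of cell quality in this order was not tested.

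**Figure D3:**
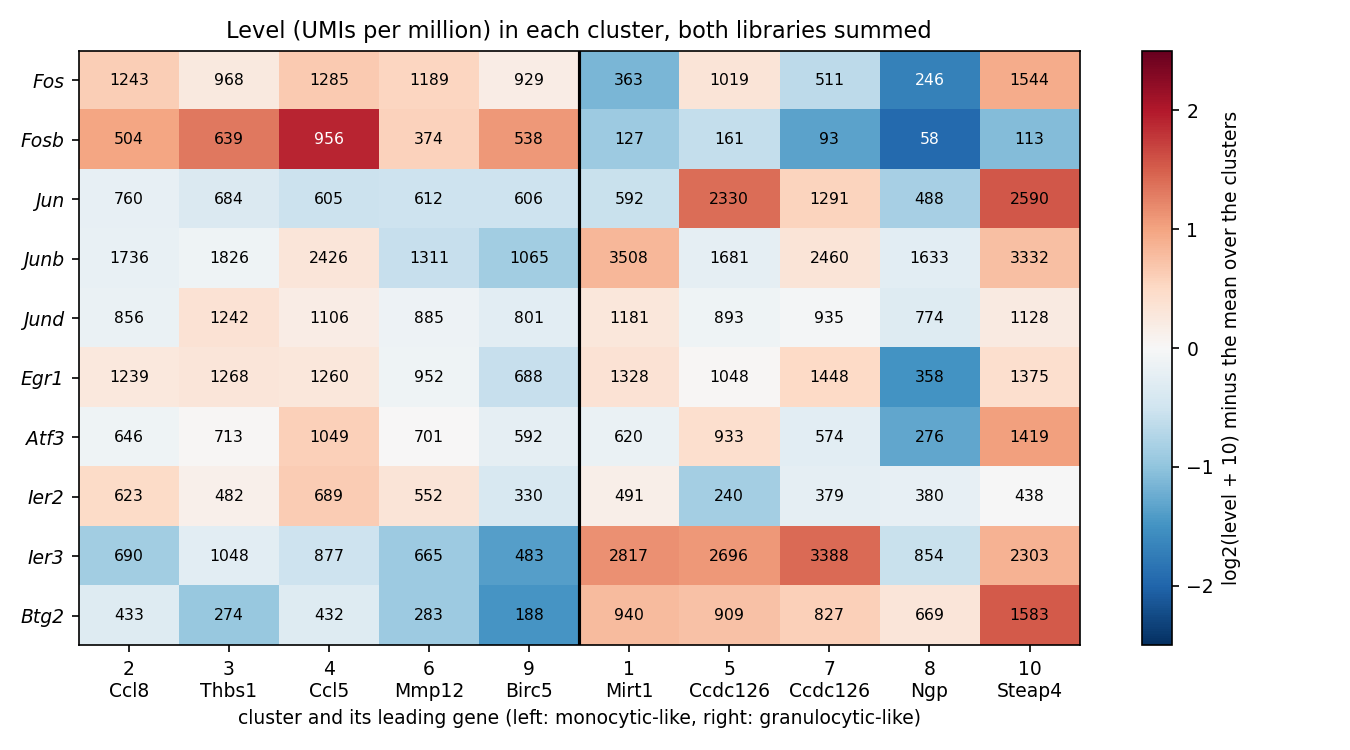
Level of each of the 10 genes (summed UMIs per 1000000, printed) in the 5 monocytic-like and 5 granulocytic-like clusters, both libraries together, colored by log2(level + 10) minus the mean of that gene over the clusters. Fosb is red on the left and blue on the right, Jun is highest in clusters 5 and 10, and the cluster led by Ngp is low for nearly all genes.

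Over clusters and libraries taken as groups (at least 20 cells and 50000 UMIs each), the levels of Atf3, Fos, Jun and Egr1 went with that of the heat shock genes among granulocytic-like groups, and those of the other genes less so or not. The 9 granulocytic-like groups come from 2 libraries and differ in depth. In the library labelled 4T1m, cluster 10 had a median of 1339 UMIs with heat shock genes at 9812 CPM. Cluster 8 had 4721 UMIs there, with heat shock genes at 1835 CPM. Over these 9 groups the Pearson correlation of log2(CPM + 10) with the heat shock sum was 0.95 for Atf3, 0.87 for Fos, 0.76 for Jun, 0.75 for Egr1, 0.02 for Junb and -0.65 for Ier2. Over 10 monocytic-like groups it lay between -0.13 (Junb) and 0.31 (Atf3). Some heat shock genes weighed more in the sum than others. In monocytic-like cells of the library labelled 4T1p, Hspa8 stood at 2828, Hsp90ab1 at 1549 and Hspa5 at 1131 CPM. Hspa1a stood there at 511 and Hspa1b at 406 CPM. The correlations are thus with the sum and not with single heat shock genes. They describe the groups, and the part of depth in them was not tested.

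**Figure D4:**
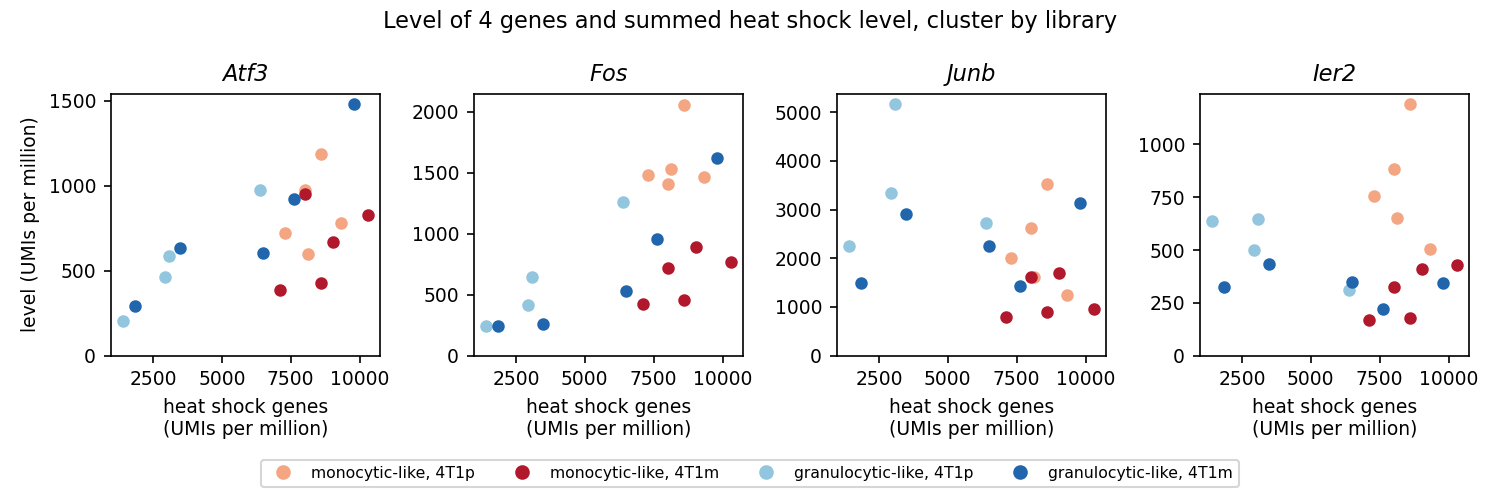
Level of Atf3, Fos, Junb and Ier2 (UMIs per 1000000) against the summed level of 14 heat shock genes (UMIs per 1000000), 1 point per cluster and library, colored by lineage and library. Blue granulocytic-like points climb together for Atf3 and Fos (correlations 0.95 and 0.87) and not for Junb (0.02), and red monocytic-like points share a narrow range of heat shock level.

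Of all 6419 genes with at least 200 UMIs, those whose level over 23 groups was most like that of Fos were Atf3 (r = 0.79), Lpar6 (0.78), P2rx7 and Rgs2 (0.76 each) and the heat shock gene Hspa1b (0.76). Most like Jun were Gadd45g (0.89), Ddit4 (0.82), Dusp1 (0.81), Gm10094 (0.80) and Cited2 (0.79), of which Gadd45g and Ddit4 are stress-induced and Dusp1 encodes a phosphatase that switches off MAP kinases. Most like Atf3 were AF251705, Cdkn1a, Csf2rb, Fxyd5 and Fos, from 0.82 to 0.79. Among the 10 monocytic-like groups the gene most like Fos was Ier2 (0.96), followed by Btg2 (0.95), and that most like Jun was Fos (0.93). These groups share libraries, and no p-value is given.

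In single cells the 10 genes were detected together more unevenly in monocytic-like than in granulocytic-like cells. Cells were thinned to 1000 UMIs to match depth, and 149 and 87 monocytic-like and 22 and 83 granulocytic-like cells of the libraries labelled 4T1p and 4T1m had fewer and were not used. The median number of the genes with a UMI was 4 and 3 in monocytic-like and 5 and 4 in granulocytic-like cells. Yet 18.4% and 11.7% of monocytic-like cells had none of the 10, against 0.437% and 2.02% of granulocytic-like cells, while 47.3% and 31.1% had 5 or more, against 56.8% and 40.1%. The variance of the number was 8.80 and 5.11 in monocytic-like and 2.72 and 3.28 in granulocytic-like cells. In monocytic-like cells of the library labelled 4T1p, Egr1 had a UMI in 67.5% of 231 cells with Fos and in 24.1% of 253 cells without it, and Jun in 55.0% and 17.8%. In the library labelled 4T1m these shares were 53.8% and 20.5% for Egr1, and 35.6% and 13.2% for Jun. In granulocytic-like cells of the library labelled 4T1p Egr1 had one in 44.6% of 83 cells with Fos and in 42.5% of 146 without it, and Jun in 61.4% and 44.5%. In those of the library labelled 4T1m the shares were 50.4% and 37.8% for Egr1 and 56.3% and 33.9% for Jun, so Jun was found more often with Fos in both lineages of both libraries.

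**Figure D5:**
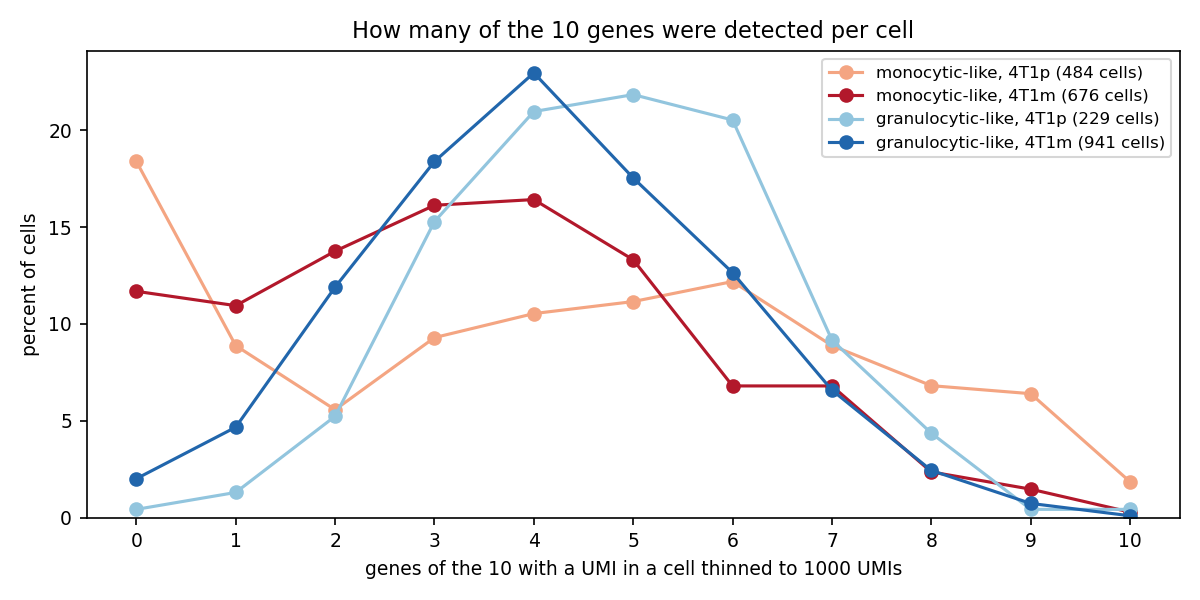
Percent of cells (vertical) by how many of the 10 genes had a UMI (horizontal) in cells thinned to 1000 UMIs, for monocytic-like (red) and granulocytic-like (blue) cells of the libraries labelled 4T1p (light) and 4T1m (dark). Monocytic-like cells of the library labelled 4T1p have peaks at 0 genes (18.4%) and at 6 (12.2%), and granulocytic-like cells have a single peak at 5 (21.8%) or 4 (23.0%).

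The monocytic-like cells with none of the genes lay in clusters 2, 6 and 9. In the library labelled 4T1p they made up 27.7%, 25.7% and 39.3% of those clusters and 0 of 57 and 0 of 126 cells of clusters 3 and 4 (which allows shares of up to 5.26% and 2.38%), and in that labelled 4T1m 42.4%, 25% and 35.6%, against 1.51% and 0.521%. Before thinning they were shallow, with a median of 1921 UMIs in the library labelled 4T1p, where cells with 5 or more of the genes had 11645. A Ptprc UMI, the mark of blood cells, was present in 21.3% and 77.7% of these, and the summed monocytic markers stood at 35719 and 34857 CPM. Epithelial tumor markers (5 genes, Krt19 at 0) summed to 119 CPM in the cells with none and 6.50 CPM in those with 5 or more. Cells with none in the library labelled 4T1m had a median of 1913 UMIs, Ptprc in 63.3% and epithelial markers at 3.59 CPM. The mean number of heat shock UMIs in cells thinned to 1000 UMIs was 6.02 in the cells with none, 7.22 in those with 1 to 4 and 8.14 in those with 5 or more of the genes in the library labelled 4T1p, and 6.76, 7.73 and 10.3 in that labelled 4T1m. The part of depth, of other cells or of handling in this pattern was not tested.

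In monocytic-like cells thinned to the same depth, the share of cells with a UMI had the same order between the libraries as the level for 8 of the 10 genes, and the other order for Fosb and for Jund (48.6% and 50.9% in the libraries labelled 4T1p and 4T1m). The intervals of the libraries lay apart for Fos, Jun, Egr1, Ier2 and Btg2. They overlapped for the other genes, as for Junb (61.2% and 59.9%) and Atf3 (37.4% and 36.4%). In thinned cells of the libraries labelled 4T1p and 4T1m, Fos had a UMI in 47.7% and 34.9% of monocytic-like cells and in 36.2% and 27.2% of granulocytic-like cells. Ier3 had one in 42.6% and 36.7% against 79.5% and 64.3%, Btg2 in 28.7% and 15.8% against 59.4% and 46.8%, and Fosb in 28.3% and 33.6% against 6.99% and 7.76%. Without thinning, Fos was detected in 58.8% and 64.2% of monocytic-like cells, an order opposite to that of its level, in libraries whose monocytic-like cells differed in depth.

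Some relatives of the 10 genes were also lower in monocytic-like cells of the library labelled 4T1m. Of 25 other early and feedback genes tested, 4 were over 2-fold lower, where 1.89% of all genes were: Dusp1, at 1102 CPM in the library labelled 4T1p and 526 in that labelled 4T1m (-1.07), Dusp2 (-1.37), Klf2 (-1.64) and Ier5l (-1.83). Over 2-fold higher was 1 (Dusp4), where 7.04% of all genes were. Of these 25, 13 had an interval below 0 and 8 above 0, with a median log2 ratio of -0.18 where that of all genes was 0.11. Zfp36, which speeds the decay of early mRNAs, was at -0.94, Socs3 at -0.91, Klf4 at -0.78 and Egr2 at -0.66. Of 14 other AP-1 subunits and partners, 0 were over 2-fold higher and 2 were lower (Batf2 and Batf3, both of few UMIs), with a median of 0.15 and an interval below 0 for 3 and above 0 for 7. Dusp2, a phosphatase of MAP kinases, was also over 2-fold lower in granulocytic-like cells (-1.35), as was Socs3 (-1.01). They were 2 of 21 early genes tested there, where 3.17% of all genes were over 2-fold lower. Of 12 upstream kinases and factors, 1 was over 2-fold higher in monocytic-like cells (Mapk8, which encodes the kinase JNK1, 1.15), as were 7.04% of all genes. Mapk8 was also higher in granulocytic-like cells (1.10), as 1 of 8 tested, where 7.24% of all genes were. Its levels were 10 to 28 CPM.

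By lineage, the AP-1 relatives higher in monocytic-like cells over 2-fold in both libraries included Atf7 and Batf2, with few UMIs in granulocytic-like cells. The log2 ratio of Batf2 was 3.58 (95% interval 1.05 to 8.91) in the library labelled 4T1p and 3.48 (1.55 to 6.56) in that labelled 4T1m. Batf3 had 0 UMIs in granulocytic-like cells of the library labelled 4T1p. Its log2 ratio there was 2.65 against a floor of 3 counts over the group, and its interval had a lower limit of 2.33. In the library labelled 4T1m the ratio was 3.87 (1.96 to 6.95). Jdp2, a repressor of AP-1, was higher in granulocytic-like cells (-1.76 and -1.27). Of the early genes, Egr2 (2.91 and 2.12), Klf4 (4.80 and 3.78), Nr4a1 (1.52 and 1.07), Myc, Dusp4, Dusp6 and Nab2 were higher in monocytic-like cells. In granulocytic-like cells of the library labelled 4T1p, Myc (1.21 CPM) and Dusp4 (2.42 CPM) had few UMIs. They thus reached the limit of 50 UMIs through monocytic-like cells. The intervals there were wide, at 0.74 to 8.61 for Myc and 1.31 to 6.27 for Dusp4. Cebpb, a factor of granulocytes and of emergency myelopoiesis, stood at 1797 against 7817 CPM and 1589 against 7099 CPM (-2.12 and -2.16), and Nfkbia, Gadd45b, Ier5 and Zfp36l2 were also higher in granulocytic-like cells. Of the upstream genes Srf, Elk3, Mapk9 and Map2k2 were over 2-fold higher in monocytic-like cells of both libraries. Srf (3.62 CPM) and Mapk9 (4.83 CPM) also had few UMIs in granulocytic-like cells of the library labelled 4T1p. Their intervals there were 1.08 to 4.97 and 0.08 to 3.43. All genes had a median of 0.98 and 1.16 in these ratios, and Nr4a1 lay below it in the library labelled 4T1m. Over 2-fold higher in monocytic-like cells were 49.5% and 53.6% of all genes. Of AP-1 relatives 4 of 13 and 5 of 14 were, and of early genes 7 of 24 in each library. Of upstream genes 5 of 11 and 4 of 11 were. Over 2-fold higher in granulocytic-like cells were 2 of 13 and 2 of 14, 6 and 8 of 24, and 0 of 11. Of all genes 11% and 10.5% were.

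By place in GRCm38 (GENCODE), Fosb lies on chromosome 7 at 19302696 to 19310051, Jund on chromosome 8 at 70698949 to 70700616, Ier2 on chromosome 8 at 84661331 to 84662852, Ier3 on chromosome 17 at 35821684 to 35822923, and Atf3 and Btg2 on chromosome 1 at 191170296 to 191218039 and 134075170 to 134079120. Jun, Jund and Ier2 have 1 annotated exon each. Counts from a 3′ library depend little on gene length, and levels are compared here within a gene only.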

How the data were processed

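GR-1+ cells of anti-PD1-treated 4T1p and 4T1m tumors gave 1 library each. The authors ran Cell Ranger on mm10 and deposited unnormalized UMI counts of each gene in each barcode called as a cell. Levels are summed UMIs in CPM with exact Poisson 95% intervals. Log2 ratios carry exact binomial intervals, and shares are percent of cells with Clopper-Pearson intervals; all cover counting error only. Where a count was 0, 3 counts served as the floor. No p-value was computed, because each tumor type has 1 library; a gene counted as called beyond 2-fold among genes with at least 50 UMIs in both groups together.

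Clusters were made with SCTransform (3000 variable genes, less the 10 genes and the listed early, upstream and heat shock genes, mitochondrial share regressed out), 11 principal components and Louvain clustering at a resolution of 0.8, after Gm42418 and AY036118 were left out. Doublets ranked by Scrublet were kept, and removed as an alternative. Of repeated symbols (58) the first entry was used. The ratios and intervals were tested on simulated counts that held counting error alone. That test could not cover variation between cells or between libraries. The members and lists were chosen with earlier results of these data known. Named genes were all 10 members, list genes beyond 2-fold the same way in both libraries or both lineages, the 5 genes most like Fos, Jun and Atf3, and leading genes and markers of clusters; list genes beyond 2-fold in monocytic-like cells between the libraries alone, Socs3, Zfp36 and the heat shock genes given singly were named after their values were seen. Results on some listed genes are left out.

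Clusters were computed in R 4.3.3 (Seurat 5.3.0, sctransform 0.4.2), and all else in Python 3.11.15 (scipy 1.17.1, numpy 2.4.6, scanpy 1.11.5 for doublets, matplotlib 3.10.9 for plots).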

Additional observations from a re-analysis of the deposited data

Results flagged for a closer look

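Of the 10 genes, 3 had ratios of opposite sign in the groups compared, and these differences were not tested. Egr1 was higher in monocytic-like cells of the library labelled 4T1p (log2 ratio 0.66 over granulocytic-like cells) and lower in those of the library labelled 4T1m (-0.14). Fosb was lower in the library labelled 4T1m among monocytic-like cells (-0.23) and higher among granulocytic-like cells (0.67), where the library labelled 4T1p had 58 UMIs of it. Atf3 was lower among monocytic-like cells (-0.30) and higher among granulocytic-like cells (0.21).

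Barcodes outside the limits on cells also held UMIs of the 10 genes. Those above the mitochondrial limit summed to 9246 CPM over the 10 genes in the library labelled 4T1p and 6124 CPM in that labelled 4T1m. Those above the limit on UMIs or genes summed to 9908 and 6908 CPM. In the 286 barcodes above the mitochondrial limit of the library labelled 4T1p, Jun stood at 1257 CPM and Fos at 707 CPM, and in the 504 of that labelled 4T1m at 634 and 518 CPM.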

How the results depend on the processing

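No value turned from a called direction to the other. Of the values of single genes, 9 of 130 and 14 of 130 had the other sign under an alternative for the lineage ratios in the libraries labelled 4T1p and 4T1m, 6 of 140 for the library ratio in monocytic-like cells and 3 of 140 in granulocytic-like cells. The counts over 2-fold, or over 1.5-fold where so stated, moved as follows. The shares of all genes given above belong to the main setting. No share of all genes is given beside these counts, so they show only how the members moved. In the library labelled 4T1p, the count higher in granulocytic-like cells was 2 without doublets, with at least 500 genes, after log-normalization, with the lineage called per cell, at 1.5-fold and with the unnamed shallow cluster joined to its lineage (chosen after seeing the data). It was 3 with cells thinned and 4 with the mean over cells or centred on the median gene. The count higher in monocytic-like cells was 1 with the mean over cells, thinned or centred, and 5 at 1.5-fold. In the library labelled 4T1m these counts were 7 when centred (granulocytic-like) and 2 at 1.5-fold (monocytic-like). The count higher in the library labelled 4T1p among monocytic-like cells was 2 with at most 5% mitochondrial UMIs, with the mean over cells and thinned, and 7 at 1.5-fold. With a Ptprc UMI required and without doublets, Egr1 among monocytic-like cells passed 2-fold between the libraries (-1.10, against -0.89 in the main setting). Among granulocytic-like cells, 3 were higher in the library labelled 4T1p and 1 in that labelled 4T1m at 1.5-fold, and 1 in that labelled 4T1m (Fosb, 1.30) with clusters weighted equally, a setting also chosen after seeing the data. The cause was not tested. Fosb among granulocytic-like cells was at -0.06 after log-normalization. No paired analysis was possible because each tumor type has 1 library, and for the same reason no replicate could be left out. Shallow cells limit the shares, and Fosb in granulocytic-like cells of the library labelled 4T1p rests on 58 UMIs.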

Other observations

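The unnamed shallow cells, 235 in the library labelled 4T1p and 248 in that labelled 4T1m, had Junb at 2230.1 and 957 CPM, Fos at 780 and 709 CPM, Ier2 at 746 and 328 CPM, and Ier3 at 861 and 364 CPM. T cell-like cells, 8 and 24 in number, had Jund at 2462 and 2403 CPM, Junb at 3012 and 1954 CPM, and Ier3 at 142 and 65.1 CPM.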
